A study of Mus musculus with 2 samples.

Results

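The genes described here are the 35 annotated miRNA genes whose symbol does not begin with Mir and that nevertheless carried reads in C2C12 cells. They were chosen by 2 criteria, a GENCODE M21 symbol that does not start with Mir and at least 5 gene-strand counts summed over both libraries, out of 2202 miRNA genes counted. Their counts therefore selected them, and their levels are given as a description without a test, whereas the rule did not use their ratio between libraries, position or sequence. Sequence can still bear on the counts, since reads that map to several places have a row of their own apart from the genes. Symbols can bear on position, since some of them name another kind of RNA. C2C12 is a mouse myoblast line made from thigh muscle of the C3H strain and obtained from ATCC. Total RNA shorter than 30 nucleotides was sequenced in 2 libraries numbered as biological replicates 1 and 2 of a single group. No treatment, genotype, culture stage or second condition is named in the labels, so no contrast between conditions exists. Nothing in the labels says how the replicate cultures were kept apart, so a p-value here measures only the difference between these libraries, part of which may be technical.

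A canonical miRNA is cut from a hairpin in a primary transcript by the Drosha and Dgcr8 complex and then by Dicer, and its seed pairs with target mRNAs. Automated annotation also calls miRNA genes by similarity to database hairpins, and such calls can fall on other RNAs. Among these are small nucleolar RNAs (snoRNAs), which guide the modification of ribosomal RNA from introns of ribosomal protein and nucleolar genes, tRNAs, and the first exons of mRNAs. Box C/D snoRNAs carry a C box (TGATGA at its core) near the 5′ end and a D box (CTGA) near the 3′ end, and a tRNA gene carries an internal promoter element, the B box (GTTCGANNC).

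Of 1028 counted genes not named Mir, 946 had no read on their strand and 47 had 1 to 4 counts, which leaves the 35. By symbol they are Snord43, mmu-mir-3535, mmu-mir-7650, the tRNA-named n-TSaga9 and n-TStga1, and 30 genes with a numbered Gm symbol. Just inside the limit stood Gm27325 and Gm27616 with 5 and 0 counts in replicates 1 and 2, and Gm44325 with 6 and 0. Just outside stood Gm23363 and Gm23419 with 3 and 1 counts, and Gm44349 with 4 and 0.

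Shown first are the member with the most reads, Snord43, and mmu-mir-3535, which overlaps a GENCODE snoRNA under a miRNA name. TGATGA and CTGA can be read in both. Snord43, the gene of a box C/D snoRNA, spans chr15:80082847-80082954 (mm10) on the minus strand in an intron of Rpl3, which encodes a protein of the large ribosomal subunit. The gene mmu-mir-3535 spans chr1:86351981-86352127 on the minus strand within Ncl, which encodes nucleolin. Capitals mark TGATGA and CTGA in the gene sequences and the seed, bases 2 to 8, in the mature miRNA as RefSeq gives it.
Snord43 gene: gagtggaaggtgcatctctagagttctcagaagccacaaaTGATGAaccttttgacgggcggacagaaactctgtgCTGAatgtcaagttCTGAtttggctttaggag
mmu-mir-3535 gene: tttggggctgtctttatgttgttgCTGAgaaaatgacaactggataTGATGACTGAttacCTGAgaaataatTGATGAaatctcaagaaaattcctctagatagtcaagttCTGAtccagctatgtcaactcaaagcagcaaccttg
mmu-miR-3535 mature: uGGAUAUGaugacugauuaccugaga
The mature sequence of 26 bases occupies bases 41 to 66 of the mmu-mir-3535 gene. Gm24148, a snoRNA in GENCODE, starts at the same base 41, covers 80 bases, and so holds the whole mature sequence, including its TGATGA. RefSeq lists Gm24148 as the miRNA Mir3535 itself, so the sources differ on its kind.

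The 3 members on serine tRNA genes are shown next, because their tRNA sequences are almost the same. Whether their counts are independent evidence of each other was not tested. Capitals mark the bases of the annotated miRNA gene that lie outside the RefSeq tRNA. The RefSeq position was matched without strand, so the tRNA overlap is by position.
n-TSaga9 gene, chr4:10874064-10874170, plus strand: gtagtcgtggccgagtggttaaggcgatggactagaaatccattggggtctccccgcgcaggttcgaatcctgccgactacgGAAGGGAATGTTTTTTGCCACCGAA
Gm44456 gene, chr13:21924928-21925016, minus strand: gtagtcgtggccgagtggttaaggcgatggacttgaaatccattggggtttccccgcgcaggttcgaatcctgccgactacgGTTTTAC
n-TStga1 gene, chr13:23518142-23518250, plus strand: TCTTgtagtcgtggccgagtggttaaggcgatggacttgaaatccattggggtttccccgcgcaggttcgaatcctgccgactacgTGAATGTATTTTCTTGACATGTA
Each holds a tRNA of 82 bases. The tRNA of n-TSaga9, whose name gives the anticodon AGA, differs at 2 of 82 bases from the others, and Gm44456 (RefSeq n-TStga2) and n-TStga1, with the anticodon TGA, have identical tRNA bases. What sets the genes apart is the sequence after the tRNA, 25 bases in n-TSaga9, 7 in Gm44456 and 23 in n-TStga1, and 4 bases before it in n-TStga1.

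The member with the most counts in an intron outside the snoRNAs, Gm23873, is shown beside Gm22466, the other member in the lincRNA A230057D06Rik, because capitals, which mark bases paired in the predicted minimum free energy fold, show the hairpin.
Gm23873 gene, chr7:61750468-61750537, minus strand: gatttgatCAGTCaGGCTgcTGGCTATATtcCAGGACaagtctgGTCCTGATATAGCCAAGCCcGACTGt
Gm22466 gene, chr7:61708705-61708773, minus strand: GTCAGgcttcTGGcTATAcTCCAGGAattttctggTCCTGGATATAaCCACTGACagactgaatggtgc
The predicted fold of Gm23873 had -33.9 kcal/mol and 68.6% of its bases paired, and that of Gm22466 had -20.7 kcal/mol and 55.1%.

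Besides mmu-mir-3535, RefSeq places a named miRNA hairpin at 4 members, which shows that the Gm symbol covers database miRNAs as well as predictions. Gm24572 is Mir3618 in RefSeq, Gm38670 is Mir9769, Gm23450 is Mir935 and mmu-mir-7650 is Mir7650. Their mature sequences are shown because the seed is what a target would pair with. Capitals mark the seed.
mmu-miR-3618-5p: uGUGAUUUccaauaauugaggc
mmu-miR-3618-3p: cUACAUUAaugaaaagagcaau
mmu-miR-9769-5p: aGGCACAGaauuaggcccgacc
mmu-miR-9769-3p: uAGGGUCUguucuguguccucc
mmu-miR-935: cCCAGUUAccgcuuccgcuaccgc
mmu-miR-7650-5p: aAUCCUCUugcaacccagaacu
mmu-miR-7650-3p: gUUUUGAUauauacaagaagga
With mmu-miR-3535 these are 8 mature sequences from 5 genes, and they have 8 different seeds. The counts are per gene and do not tell the arms apart.

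Gene-strand counts summed to 27661907 in replicate 1 and 15025315 in replicate 2. Levels are counts per 1000000 of these totals (CPM), so 1 count was worth 0.0362 CPM in replicate 1 and 0.0666 CPM in replicate 2, and a count of 0 allows up to 3 counts, or 0.108 and 0.2 CPM. CPM counts reads per gene and is not divided by gene length, so it does not rank the genes by RNA per base. The libraries stood apart in their leading gene: Mir21a took 230571 CPM in replicate 1 and 535157 CPM in replicate 2, which lowers the CPM of other genes in replicate 2. Ratios were therefore taken after TMM scaling, which moved the log2 ratio of replicate 2 to replicate 1 of every gene by 0.90 against scaling by totals. Of the muscle markers, Mir206 had 2559 and 1028 CPM and Mir133b 88.0 and 20.4 CPM, while Mir1a-1, Mir133a-1 and Mir133a-2 had no count and Mir1a-2 had 3 and 0. Of markers of other cell types, Mir142 (blood) had 215 and 122 CPM and Mir126a (endothelium) 213 and 134 CPM, Mir223 and Mir451a stayed under 1 CPM, Mir122 (liver) had 3.90 and 1.26 CPM, and the neuronal Mir124a and Mir9 genes had at most 2 counts. Whether RNA of other cells adds to the members' reads was not tested.

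The members took 3288 counts in replicate 1, 0.0119% of the library (exact Clopper-Pearson 95% interval 0.0115% to 0.0123%), and 11033 counts in replicate 2, 0.0734% (0.0721% to 0.0748%). The mean was 0.0427% ± 0.0435 (SD, n = 2). The intervals hold counting error within a library and are no test between libraries. Most of that gap came from a single gene, since Snord43 held 46.7% of the members' counts in replicate 1 and 86.0% in replicate 2. Without Snord43 the share was 0.00831% ± 0.0028, and without Snord43 and Gm22133 it was 0.00593% ± 0.000447 (SD, n = 2 for both). The other 33 members had 1727 counts in replicate 1 and 843 in replicate 2, that is 62.4 and 56.1 CPM. In bulk RNA, fewer cells with a transcript and less of it per cell cannot be told apart, here and below.

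Most members were close to the limit of detection. The median sum over both libraries was 24 counts, 24 members had fewer than 50 counts and 10 had at least 100. A level of 1 CPM or more was reached by 15 members in replicate 1, 9 in replicate 2 and 8 in both. Gm23061 had no count in replicate 1, and Gm44325, Gm27325 and Gm27616 had none in replicate 2.

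**Figure D1:**
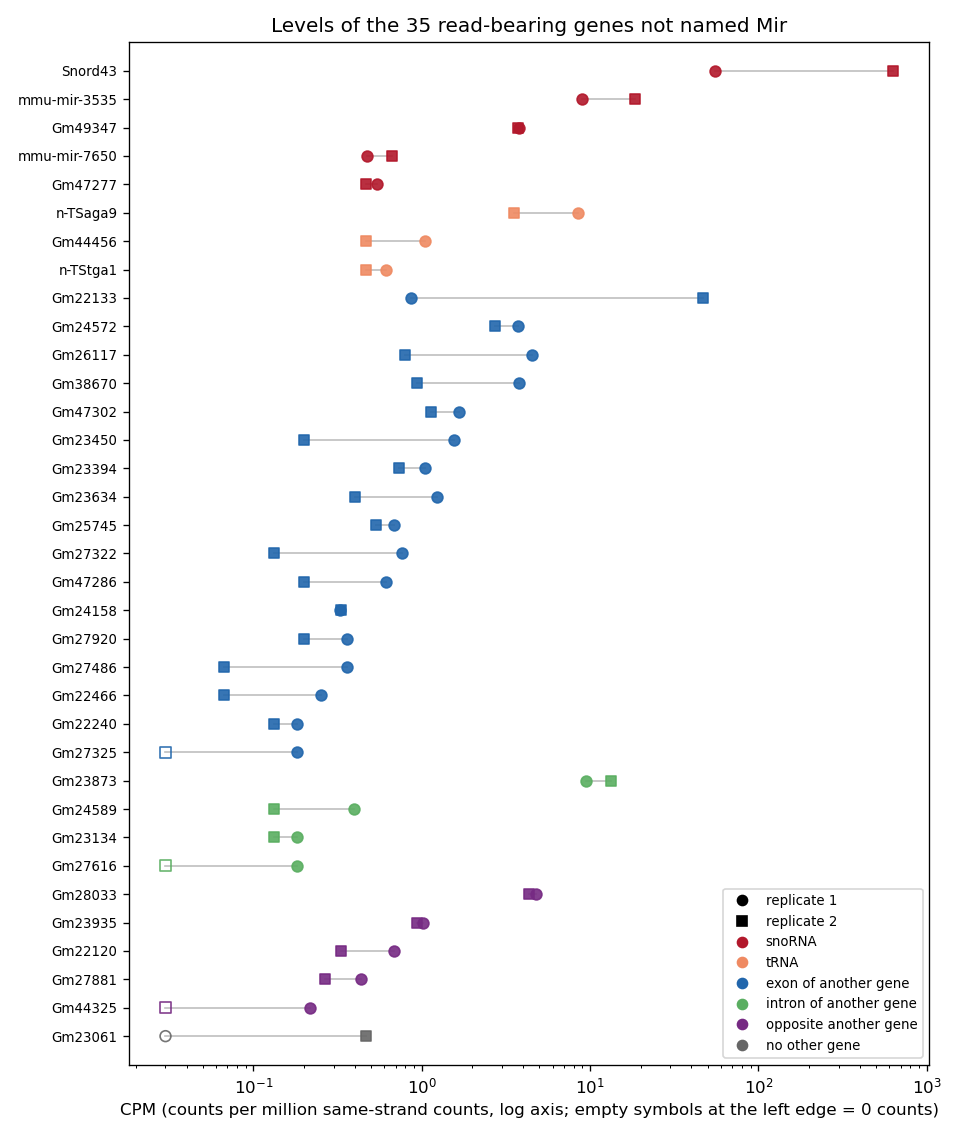
Level of each of the 35 genes in CPM (log axis), with a circle for replicate 1, a square for replicate 2 and colour for the location; empty symbols at the left edge stand for 0 counts. Snord43 lies at 55.6 and 631 CPM and Gm22133 at 0.868 and 46.8 CPM, the 2 widest gaps among members with counts in both libraries, and most others lie under 1 CPM.

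Nearly all reads of the members lay on the annotated strand, which the rule favours. It counted gene-strand reads alone, so a gene with opposite-strand reads only could not be a member. With counts on either strand the limit would take 41 genes. The strands are therefore given as a description. On the opposite strand the 35 members had 2 reads in replicate 1 and 1 in replicate 2, 3 reads in all (1 each on Gm47302, Gm22240 and Gm28033), and 32 members had none in either library. Over all 2202 genes, 843574 and 244513 reads lay on the opposite strand, of which 51809 and 17128 belonged to Mir-named genes with at least 5 counts and 561683 and 172056 to genes not named Mir with fewer than 5. None of the 35 overlaps another miRNA gene on either strand. Of the Mir-named genes with at least 5 counts 26 of 608 do, and of the other genes not named Mir 12 of 993. Over either strand 843141 and 244382 reads were ambiguous between genes, against 0 on the gene strand. How much of the opposite-strand totals comes from overlapping miRNA genes was not tested.

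Of 28 members with at least 10 counts in all, 9 (32.1%) were called apart by the two-sided exact binomial test with Benjamini-Hochberg adjustment, against 41.5% of all 556 genes tested. In replicate 2, 6 members were higher (24.6% of all genes were) and 3 were lower (16.9% of all genes were). This test compares the 2 libraries, and counting error is the only error it holds. The split depends on the scaling: over all genes 137 were higher and 94 lower with TMM, 106 and 129 with DESeq2 size factors, and 26 and 304 with library totals, while of the members 6 and 3, 6 and 3, and 4 and 6 were. At least 2-fold apart and called were 7 of the 28 (4 higher and 3 lower), against 11.2% of all genes. The median log2 ratio was 0.39 over the 28 members and 0.09 over all tested genes, whose ratios had an SD of 0.905. With library totals in place of TMM the members' median turned to -0.50 and that of all genes to -0.81. The coefficient of variation that edgeR estimated between the libraries was 34.4% over all tested genes.

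**Figure D2:**
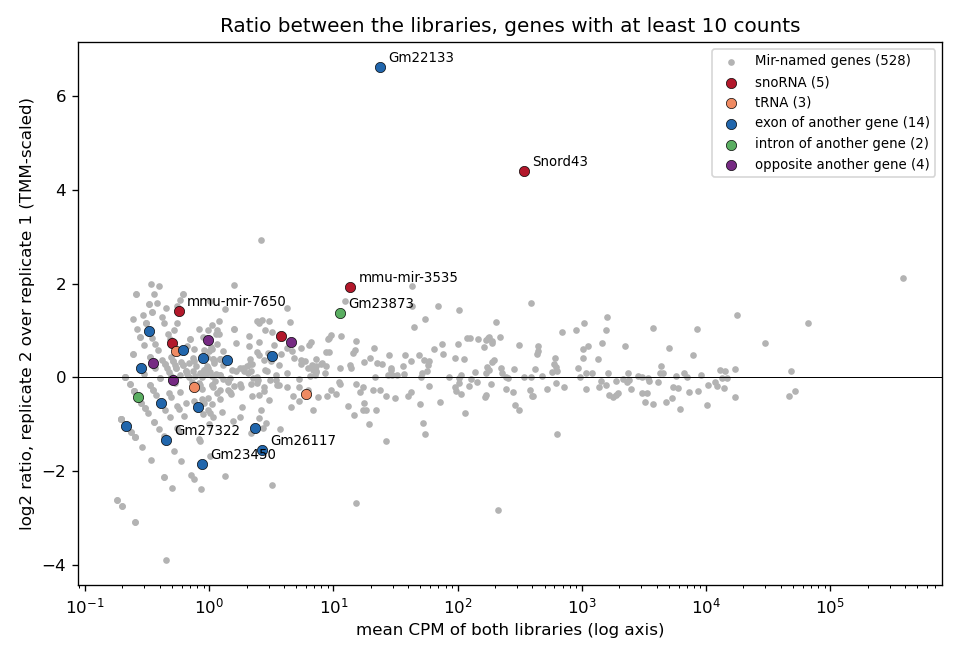
Log2 ratio of replicate 2 over replicate 1 after TMM scaling against the mean CPM of both libraries (log axis), for the 28 members with at least 10 counts (coloured by location) and 528 Mir-named genes (grey). Gm22133 at 6.62 and Snord43 at 4.40 lie above every grey point, and the other members lie between -1.86 and 1.93.

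The 5 members in snoRNAs carried most of the members' reads, 58.3% of their counts in replicate 1 and 89.2% in replicate 2. Snord43 had 1537 and 9487 counts in replicates 1 and 2, which is 55.6 and 631 CPM (343 ± 407; such values are the mean ± SD, n = 2, throughout). Replicate 2 was 21.2-fold higher after TMM scaling, with a log2 ratio of 4.40 (95% counting interval 4.33 to 4.48), and 3.51 by library totals. It ranked 2 of 556 tested genes by that ratio. RefSeq places a snoRNA of 48 bases inside the 108 bases of the gene. The TGATGA marked above lies before those 48 bases, and both CTGA lie within them. None of the gene's 87 stretches of 22 bases occurred in an annotated transcript of a gene elsewhere.

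The gene mmu-mir-3535 had 248 and 276 counts, 8.97 and 18.4 CPM (13.7 ± 6.65). Replicate 2 was higher, with a log2 ratio of 1.93 (1.68 to 2.19) and an adjusted p of 1.01e-49 in the exact binomial test, rank 9 of 556. Its gene holds TGATGA 2 times and CTGA 4 times, as the capitals above show. Gm49347, which shares 96 of its 111 bases with Snora74a, an H/ACA snoRNA that guides pseudouridylation, had 105 and 56 counts, almost equal CPM of 3.80 and 3.73. Its log2 ratio was 0.88 (0.38 to 1.35, exact binomial adjusted p = 0.00133) after TMM scaling and -0.02 by library totals, so its direction rests on the scaling.

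The remaining members in snoRNAs were weak and not called. Taf1d, which encodes a subunit of the RNA polymerase I initiation complex, holds mmu-mir-7650 (59 bases, chr9:15312611-15312669, plus strand). The whole of mmu-mir-7650 lies in Gm25500, which GENCODE calls a snoRNA and RefSeq lists as the miRNA Mir7650. It had 13 and 10 counts, and its log2 ratio was 1.42 (0.05 to 2.70, exact binomial adjusted p = 0.0562). Its mature 5p and 3p sequences fill bases 1 to 22 and 38 to 59, the ends of the gene. Of its 38 stretches of 22 bases, 18 also occur in the snoRNA Gm24183. Gm47277 (chr8:13876091-13876184, plus strand) has 88 of its 94 bases in the snoRNA Gm24698 within Champ1. It had 15 and 7 counts and a log2 ratio of 0.73 (-0.86 to 2.06), or -0.17 by library totals. It shares 22 of 73 such stretches with Snora3, a snoRNA in Rpl27a, so reads of the copies cannot always be told apart. Over the snoRNA genes the median log2 ratio was 1.42, and of 5 tested 3 were higher in replicate 2 and 0 lower (background 24.6% and 16.9%). By library totals 3 of the 5 ratios stayed above 0.

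None of the 3 tRNA-located members was called. All 3 had more CPM in replicate 1, as did most tested genes, whose median log2 ratio by library totals was -0.81. Serine tRNAs read the serine codons during translation, and tRNAs are also cut into short fragments that enter small RNA libraries. n-TSaga9 had 233 and 53 counts, 8.42 and 3.53 CPM (5.98 ± 3.46), with a log2 ratio of -0.35 (-0.82 to 0.08, exact binomial adjusted p = 0.204). By library totals its ratio was -1.25 and passed the threshold. Gm44456 had 29 and 7 counts and a log2 ratio of -0.20, and n-TStga1 had 17 and 7 counts and a ratio of 0.56, or -0.34 by library totals. Of their stretches of 22 bases, 24 of 86 in n-TSaga9, 62 of 68 in Gm44456 and 61 of 88 in n-TStga1 occur in another gene's transcript. A read within the shared tRNA bases fits more than one of these genes, and how such reads entered the counts was not tested.

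On the same strand 20 members overlap an exon of another gene. Of these, 3 lie in snoRNAs and were described above (mmu-mir-3535, Gm49347 and mmu-mir-7650), and the other 17, 48.6% of the 35, are called exonic here. Gm22133 led them with 24 and 703 counts, 0.868 and 46.8 CPM (23.8 ± 32.5). It lies at chr7:45458089-45458197 on the minus strand in Ftl1, which encodes the light chain of the iron store ferritin, with 88 of its bases in coding sequence and 21 in the 3′ UTR. Replicate 2 was 98.5-fold higher after TMM scaling, and the log2 ratio of 6.62 (6.07 to 7.30) ranked 1 of 556 genes, with 5.72 by library totals. Of its 88 stretches of 22 bases, 56 occur in other transcripts, with 52 each in Ftl1-ps1, Mir692-2 and Mir692-3, 43 in Gm22774 and 41 in Ftl2-ps. Mir692-2, Mir692-3 and Gm22774, the miRNA genes among these copies, had no count in either library.

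RefSeq places a miRNA hairpin at 3 of the exonic members. Gm24572 (Mir3618) lies in the 5′ UTR of Dgcr8, whose product is the hairpin-binding partner of Drosha, at chr16:18284550-18284637 on the minus strand. It had 103 and 41 counts, 3.72 and 2.73 CPM, and a log2 ratio of 0.46 (-0.11 to 0.98, exact binomial adjusted p = 0.182), which turned to -0.44 by library totals. Mir1306, which lies in Dgcr8 on the same strand, had 3562 and 902 counts and a log2 ratio of -0.20 (-0.31 to -0.10). The difference between these ratios was not tested.

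The other 2 were lower in replicate 2. Gm38670 (Mir9769), in a noncoding exon of Hspb6, a small heat shock protein gene of muscle, had 104 and 14 counts, 3.76 and 0.932 CPM. Its log2 ratio was -1.07 (-2.04 to -0.30, exact binomial adjusted p = 0.0111). Gm23450 (Mir935), in coding sequence of Cacng8, which encodes an auxiliary subunit of AMPA receptors, had 43 and 3 counts, 1.55 and 0.2 CPM. Its log2 ratio was -1.86 (-4.40 to -0.42, exact binomial adjusted p = 0.0189), with only 3 counts behind the lower level. The predicted folds of Gm38670 and Gm23450 had 77.9% and 72.5% of bases paired, against a median of 63.2% over the members and 70.1% over Mir-named genes with at least 5 counts.

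Of the exonic members, 12 reach into a 5′ UTR, 34.3% of all 35, against 22 of 608 Mir-named genes with at least 5 counts (3.62%) and 20 of 993 other genes not named Mir (2.01%). All 12 stayed under 5 CPM in both libraries, and together they had 424 and 106 counts. Their median GC content was 68.8%. Gm26117, in the 5′ UTR of Adgrb1, an adhesion receptor gene, had the highest GC content of the members at 91.6%. It had 125 and 12 counts, 4.52 and 0.799 CPM, and was lower in replicate 2 with a log2 ratio of -1.55 (-2.59 to -0.75, exact binomial adjusted p = 1.16e-04). It was the single one of the 10 tested in a 5′ UTR that was called (background 41.5%), and their median log2 ratio was -0.18.

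The rest of the 5′ UTR members were not called or not tested. Gm47302 lies in the fibrillar collagen gene Col3a1, with 75 of its bases in the 5′ UTR and 66 in coding sequence. It had 46 and 17 counts, 1.66 and 1.13 CPM, and a log2 ratio of 0.37 (-0.55 to 1.17), or -0.53 by library totals. Gm23394 in Ralgapa1 had 29 and 11 counts, Gm23634 in Stmn1, which encodes the microtubule destabiliser stathmin, 34 and 6, and Gm25745 in Hsp90b1, a chaperone gene of the endoplasmic reticulum, 19 and 8. Gm27322 in Smurf2, a ubiquitin ligase gene, had 21 and 2 counts, Gm47286 in the linker histone gene H1fx 17 and 3, Gm27920 in the deubiquitinase gene Usp15 10 and 3, and Gm27486 in Sbno1 10 and 1. Gm22240 in Itprip and Cfap43 had 5 and 2 counts and Gm27325 in Eif3j2, a translation initiation factor gene, 5 and 0, both too few to test. Of these, Gm23634 and Gm27322 passed the threshold by library totals, at -1.53 and -2.22. The remaining exonic members were Gm24158 in the noncoding Gm11613 with 9 and 5 counts, and Gm22466 in A230057D06Rik with 7 and 1.

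**Figure D3:**
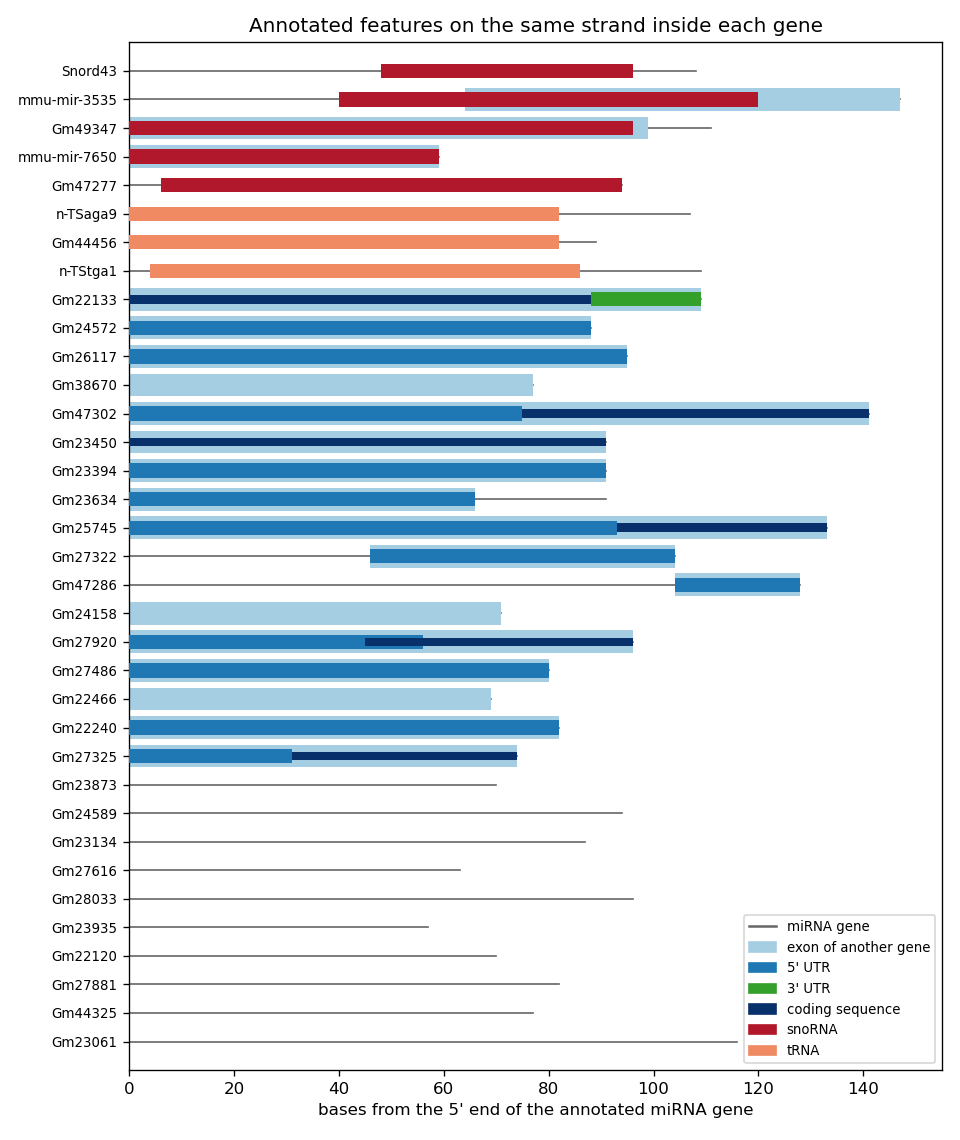
Map of each annotated miRNA gene (line) in bases from its 5′ end, with bars for the exons, UTRs, coding sequence and snoRNAs of other genes on its strand, and for RefSeq tRNAs by position. snoRNAs and tRNAs lie inside the top 8 genes, 3 of which also overlap an exon, the next 17 overlap an exon alone, and the last 10 have none of these.

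Transcript starts lay close to many of these genes. The gene start was within 100 bases of the annotated start of another gene's transcript on the same strand in 13 members (37.1%), against 57 of 608 Mir-named genes with at least 5 counts (9.38%), 22 of 566 with fewer (3.89%) and 26 of 993 other genes not named Mir (2.62%). Of those 13, 11 overlap a 5′ UTR, and their median GC content was 69.5%. Of the 11 tested, 1 was higher and 1 was lower in replicate 2, against 24.6% and 16.9% of all tested genes. Of 50 tested Mir-named genes this close to a start, 13 were higher and 9 lower. No comparison of these shares was tested, since the members were chosen by their reads.

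Introns of other genes hold 4 members. Gm23873 had 262 and 199 counts, 9.47 and 13.2 CPM (11.4 ± 2.67), and was higher in replicate 2 with a log2 ratio of 1.38 (1.11 to 1.65, exact binomial adjusted p = 5.47e-22), or 0.48 by library totals. Around it the minus strand of chromosome 7 holds 20 miRNA genes of the table, from Gm25533 at position 61673829 to Mir344i ending at 62085310, of which 13 are named Mir344 and 11 lie in A230057D06Rik. Only 7 of the 20 had a read, and Gm23873 had more counts than any other of them. Mir344d-3 followed with 75 and 44 counts and a log2 ratio of 1.02 (0.44 to 1.56, exact binomial adjusted p = 0.00119), and Mir344b had 72 and 22 counts and a ratio of 0.09. Gm23873 shares 3 of its 49 stretches of 22 bases with other genes, with 2 in Gm23490 and 1 in Mir344d-1, and Gm22466 shares 2 of 48. The remaining intronic members were Gm24589 in the polycystin gene Pkd1 with 11 and 2 counts, Gm23134 in Blcap with 5 and 2, and Gm27616 in Prrc2c with 5 and 0. Gm23134 also lies opposite an exon of Nnat and shares 2 of its 66 stretches with Mir708, which had 8050 and 2519 counts.

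Opposite another gene lie 5 members, and 1 has no annotated gene on either strand. Gm28033, at chr17:35868302-35868397 on the minus strand, opposite an exon of Ppp1r18, which encodes a regulatory subunit of a protein phosphatase, had 132 and 65 counts and close levels of 4.77 and 4.33 CPM. Its log2 ratio was 0.76 (0.30 to 1.20, exact binomial adjusted p = 0.00247) after TMM scaling and -0.14 by library totals, so here too the direction rests on the scaling. Its predicted fold paired 77.1% of the bases. Gm23935, opposite Zc3h7a, had 28 and 14 counts, 1.01 and 0.932 CPM. Its log2 ratio was 0.80 (-0.26 to 1.75), or -0.094 by library totals. All 36 stretches of 22 bases of Gm23935 recur in Gm24245 and Gm24270, of which Gm24270 had 3 and 0 counts. Gm22120 opposite Gm48807 had 19 and 5 counts, Gm27881 opposite the nuclear receptor coactivator gene Ncoa2 12 and 4, and Gm44325 opposite Tmem62 6 and 0. Gm23061, which has no other gene at its place, had 0 and 7 counts, the single member with reads in replicate 2 alone.

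Locations were spread differently from those of the Mir-named genes, with snoRNAs and tRNAs assigned before exons and introns. An intron location held 11.4% of the members and 51.8% of the 608 Mir-named genes with at least 5 counts. An exon location held 48.6% and 26.3%, a snoRNA location 14.3% and 0.987%, a tRNA location 8.57% and 0.164%, and a location opposite another gene 14.3% and 4.93%. Of the 993 other genes not named Mir, 42.2% lay at no other gene, against 2.86% of the members. The snoRNA and tRNA shares are partly set by the naming rule. Snord43 was placed with the snoRNAs by its symbol, and the symbols n-TSaga9 and n-TStga1 name a tRNA. No Mir-named gene can bear such a symbol.

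In sequence the members lay between the read-bearing Mir genes and the other genes not named Mir. All stretches of 22 bases were found in no transcript elsewhere in 18 members (51.4%), in 82.9% of the 608 Mir-named genes and in 14.2% of the 993 others. At least 50% of the stretches recurred elsewhere in 5 members (14.3%), against 1.81% and 59.8%. The predicted folding energy had a median of -0.36 kcal/mol per base in the members, -0.42 in the Mir-named genes and -0.32 in the others, and median lengths were 91, 78 and 104 bases. In GC content the members stood above both, with a median of 57.1% against 52.3% and 50.5%, and 16 of the 35 had at least 60%.

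**Figure D4:**
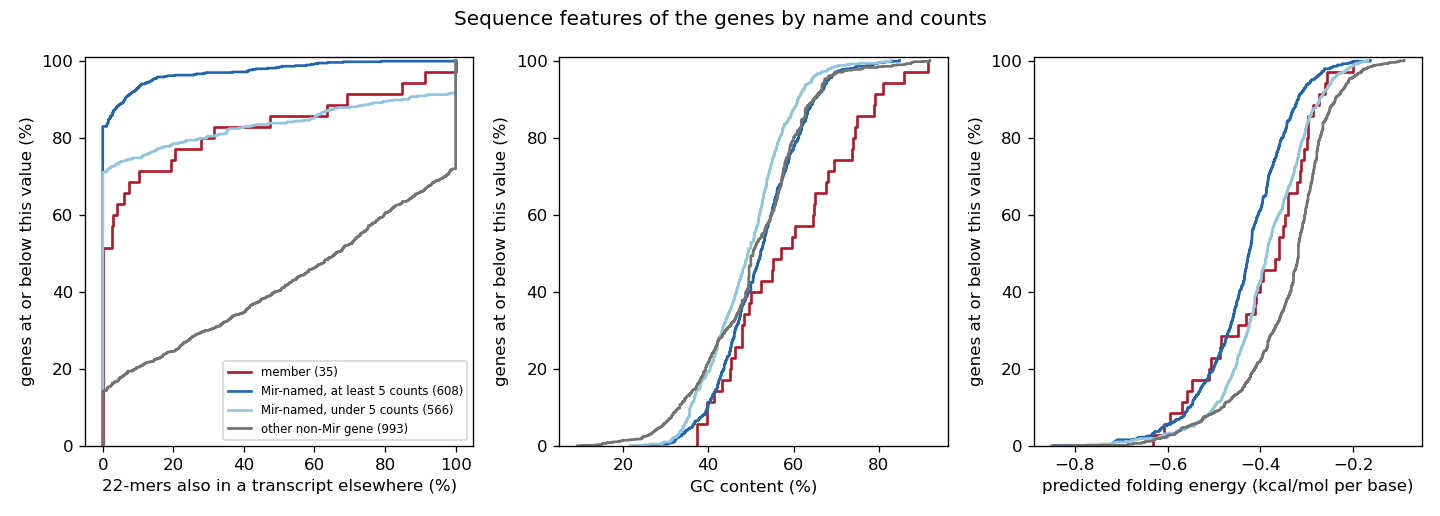
Cumulative share of genes (%) by the share of 22-base stretches also found in a transcript elsewhere (%), by GC content (%) and by predicted folding energy (kcal/mol per base), for the 35 members, Mir-named genes with at least 5 counts (608) and fewer (566), and the other 993 genes. The members' curve lies between those of the 608 and the 993 for shared stretches and furthest to the right for GC content, with a median of 57.1%.

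The motifs were searched in the gene sequences, with overlapping matches counted for each motif. TGATGA on the gene strand was found in 3 of 35 members (8.57%), Snord43, mmu-mir-3535 and Gm47302, and in 1.73% of all 2202 genes. On either strand it was found in the same number of members and 2.59% of all genes. Gm47302 lies in Col3a1 and in no snoRNA. CTGA was found on the gene strand in 16 members (45.7%) and 38.2% of all genes, and on either strand in 21 members and 57.5% of all genes. GTTCGANNC was found in the 3 tRNA members alone (8.57%), and in 1.04% of all genes on the gene strand and 2.18% on either strand. A match of so few letters is a description of the sequence, not a site.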

How the data were processed

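Small RNA of 2 C2C12 libraries was analysed. The authors deposited 1 table a library with whole-number read counts for 2202 miRNA genes, on either strand, on the gene strand and on the opposite strand, with mm10 and GENCODE M21 named per the deposited readme files. Which aligner and which counter were used is not given in the sources used here. Rows that name no gene (unmapped, multimapping, ambiguous or on no gene) held 49.7% and 38.8% of the reads in replicates 1 and 2 and stayed out of totals and tests. Such rows mean that reads with several places may be missing from genes with copies.

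Replicate 1 held 55036610 reads and replicate 2 held 24569278, of which 50.3% and 61.2% were counted on the gene strand. All 2202 identifiers matched GENCODE M21, which gave symbols, positions and sequences. snoRNA, tRNA and miRNA positions were added from RefSeq (GRCm38.p6), which also gave the mature sequences. Locations were assigned in the order snoRNA, tRNA, exon on the same strand, intron, opposite strand, none. A symbol starting with Snor, or a GENCODE snoRNA on the same strand, counted as a snoRNA location. Folds came from ViennaRNA 2.7.2. Stretches of 22 bases were searched in GENCODE transcripts of genes elsewhere, not in a genome.

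Genes with at least 10 counts over both libraries (556) were compared after TMM scaling (edgeR 4.0.16, R 4.3.3) with a two-sided exact binomial test, Benjamini-Hochberg adjustment over all of them and a threshold of 0.05. With 1 library a side this compares libraries, and edgeR's quasi-likelihood test has no contrast here. A prior count of 0.5 was added for log2 ratios, and their 95% intervals come from exact binomial limits. These intervals and the floors hold counting error alone, because reads copied by PCR and lacking molecular identifiers are not separate molecules. The test was tested on simulated data. As alternatives, scaling by library totals and by DESeq2 1.42.0 size factors was tried, and other count limits, either-strand counts and leaving out a replicate. All 35 members are named. Full values follow a rule. It takes the 12 highest by mean CPM, the 4 largest ratios each way among those called and those in a snoRNA. It also takes those with opposite-strand reads and those at the count limit. Gm44456, n-TStga1, Gm22466 and the Mir genes set beside members were chosen after their values were seen. Members and lists were chosen with earlier results of these data known.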

Additional observations from a re-analysis of the deposited data

Results flagged for a closer look

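Reads that mapped to several places have a row of their own in the deposited tables, apart from the genes, with 18382947 reads in replicate 1 (33.4% of all) and 5599235 in replicate 2 (22.8%). They are singled out because they are a signal outside the gene counts used above. Of the members, 17 share at least 1 stretch of 22 bases with a transcript elsewhere, and how many of these reads belong to them was not tested.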

How the results depend on the processing

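The number of members was 58 with a limit of 2 counts, 28 with 10, 23 with 20 and 41 with counts on either strand. Their share of the counts ranged from 0.0119% to 0.0734% when either replicate was left out, and it was 0.0867% per total without Mir21a. Of the 28 members tested, 9 were called apart with DESeq2 size factors (the same 9), against 235 of all 556 genes. With library totals 10 were called (7 of them shared, 4 higher and 6 lower). A limit of 5 counts gave 10 of 35 members, against 234 of 643 genes. A limit of 20 gave 10 of 23 members, against 231 of 468 genes. Over all 556 genes 330 were called with library totals, 26 higher and 304 lower, so the split between higher and lower depends on the scaling. The median log2 ratio of the members was 0.26 with DESeq2 size factors, 0.38 with either-strand counts and -0.50 with library totals. By library totals 11 single ratios changed sign: Gm23935 to -0.094, Gm25745 to -0.32, Gm23394 to -0.48, Gm24572 to -0.44, Gm28033 to -0.14, Gm27920 to -0.70, Gm27881 to -0.59, n-TStga1 to -0.34, Gm47277 to -0.17, Gm49347 to -0.020 and Gm47302 to -0.53. The construction shows the cause, a shift of 0.90 common to all genes. All 28 ratios kept their sign and call with DESeq2 size factors and with either-strand counts. Leaving out a replicate leaves no ratio. Another gene overlapped 26 members on the same strand, 24 of them over their whole length, and 31 on either strand. Under 50% of stretches recurred elsewhere in 30 members with 22 bases and 29 with 18, a setting chosen after seeing the data; the search over a genome was not run. No paired analysis was possible because there is a single group. Depth limits most members: 24 had fewer than 50 counts.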

Other observations

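Other miRNA genes, named Mir and with at least 5 counts, also overlap an annotated snoRNA, and their ratios pointed both ways. For Mir3068, Mir677 and Mir1949 the snoRNA entry bears the same symbol as the miRNA gene. Alkbh1 and Atp5b below are host genes. Mir3068 in Alkbh1 had 1526 and 1271 counts in replicates 1 and 2 and a log2 ratio of 1.51 (1.41 to 1.62), and Mir1291 in Snora34 had 28 and 32 counts and a ratio of 1.97 (1.19 to 2.76). Mir664 in Snora36b had 741 and 268 counts and a ratio of 0.31 (0.10 to 0.51). Mir5121, which lies in Snord33 in an intron of the ribosomal protein gene Rpl13a, had 1253 and 267 counts and a ratio of -0.45 (-0.65 to -0.26). Mir677 in Atp5b had 846 and 123 counts and a ratio of -0.999 (-1.29 to -0.73). Mir1949 had 295 and 64 counts and a ratio of -0.42 (-0.84 to -0.03), and it was not called. Snord43 and mmu-mir-3535, both higher in replicate 2, therefore do not stand for every miRNA gene annotated in a snoRNA.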
